A study of Mus musculus with 20 samples.

Results

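Transcript levels of 8 genes of neurotrophin signalling were followed in the hippocampus of 20 mice. They were the ligand genes Bdnf and Ntf3, the receptor genes Ntrk2, Ntrk3 and Ngfr, the sorting receptor gene Sort1 and the granin genes Vgf and Scg2. The genes were taken by symbol from a list of neurotrophin ligands, receptors and related genes. The rule itself uses no measured value, but the list was drawn up with earlier results of these data known. All 8 were found among the 49671 genes counted, and all 8 passed the filter on low counts that left 18427 genes for testing.

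The series asks how immune checkpoint inhibitors (ICI), antibodies that release a brake on T cells, affect the brain. All animals were adult male wild-type mice, 10 to 12 weeks old, of a strain not given in the sources used here, and 1 frozen hippocampus from each of 5 brains per group was sequenced in bulk. The control group had no tumour and received isotype-matched antibodies. The ICI group had no tumour and received anti-CTLA-4 (1 mg, given 3 times per week) together with anti-PD-1 (200 µg, given 2 times per week). The melanoma group was injected intradermally on both sides with 500000 D4M-3A.UV2 cells, a melanoma line syngeneic to the mice, and received isotype-matched antibodies after 1 week of engraftment. The melanoma plus ICI group had the same tumours and the same engraftment time, and received both checkpoint antibodies for 3 weeks. How long the ICI group without tumours was treated is not given in the sources used here, so a difference in duration cannot be told apart from the tumour where both treated groups are compared. All antibodies were given intraperitoneally, and tissue was taken 72 hours after the last injection. The tumours were in the skin, outside the tissue measured.

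Neurotrophins are secreted growth factors that neurons make as precursors and cleave to mature forms. Mature Bdnf binds the receptor tyrosine kinase TrkB, the product of Ntrk2, and the product of Ntf3 binds TrkC, the product of Ntrk3. Both receptors signal through the Ras and MAP kinase pathway, the PI3 kinase and Akt pathway and phospholipase C gamma. Uncleaved precursors bind the neurotrophin receptor encoded by Ngfr together with sortilin, the product of Sort1, which also sorts the Bdnf precursor into the regulated secretory pathway. Vgf and Scg2 encode granins, proteins of dense-core vesicles that are cut into signalling peptides. In the hippocampus Bdnf is made by granule cells and pyramidal neurons, its transcription follows neuronal activity, and it takes part in long-term potentiation.

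Bdnf is transcribed from several alternative promoters, and CREB, the transcription factor that binds cyclic AMP response elements, is a known activator of Bdnf, Vgf and Scg2. RefSeq promoter sequences (build GRCm38.p6) covered 5 of the 8 genes, with 7 start sites for Bdnf, 2 for Ntf3 and 1 each for Ntrk2, Ngfr and Scg2. The palindrome TGACGTCA and the variant TCACGTCA were searched on both strands in the 250 bases before each start. Of 32851 such windows in the table, 1.55% held TGACGTCA, 0.35% held TCACGTCA and 1.88% held either one. Among the genes described here, 1 of the 7 Bdnf windows and the Scg2 window held a match, and the Ntf3, Ntrk2 and Ngfr windows held none. The Bdnf window with the match is chr2:109692186-109692435 on the plus strand, inside the gene, and its match lies 38 to 31 bases before the start site. The Scg2 window is chr1:79440027-79440276 on the minus strand, and its match lies 68 to 61 bases before the start site. Both are shown because they are the windows of the group that hold the element, 5′ to 3′, with the match in capitals.
Bdnf: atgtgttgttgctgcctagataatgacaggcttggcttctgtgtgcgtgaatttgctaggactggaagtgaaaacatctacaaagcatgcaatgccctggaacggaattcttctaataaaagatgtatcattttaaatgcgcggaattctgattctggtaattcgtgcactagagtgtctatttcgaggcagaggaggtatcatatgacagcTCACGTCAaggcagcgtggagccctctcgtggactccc
Scg2: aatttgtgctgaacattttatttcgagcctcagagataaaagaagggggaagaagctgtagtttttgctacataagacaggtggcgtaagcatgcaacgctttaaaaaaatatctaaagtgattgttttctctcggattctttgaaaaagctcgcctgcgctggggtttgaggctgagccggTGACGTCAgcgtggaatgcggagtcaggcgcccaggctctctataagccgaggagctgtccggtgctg
The deposited counts are summed per gene, so transcripts from the separate Bdnf promoters are not told apart in the levels below.

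The 20 libraries held 21990624 to 25735149 counts each. In units of 1000000 counts, the mean depth was 23.4 ± 1.28 (SD, n = 5) for control, 23.1 ± 1.06 for ICI, 23.4 ± 0.899 for melanoma and 24.2 ± 1.18 for melanoma plus ICI. Hippocampal markers were present throughout: all 6 markers of the dentate gyrus, 5 of field CA1 and 6 of field CA3 had counts in every library. A marker score is the mean log2 CPM (counts per 1000000) of such a list. Scores of neighbouring tissue differed between libraries. The striatum score lay between 5.16 and 6.56 in melanoma 1, 3 and 5 and in melanoma plus ICI 3, and between 2.69 and 3.49 in the other 16 libraries. Control 4 and melanoma plus ICI 1 stood apart in another way: the level of genes fell with their exon length, by 0.109 and 0.069 log2 units per doubling of length, against slopes of -0.012 to 0.041 in the other 18. In bulk tissue, fewer cells of a type and less RNA per cell cannot be told apart.

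CPM divided by exon length, all exon bases of the gene in kilobases, put the genes on 1 scale. Where a gene's hippocampal transcripts use only some of its exons, as may hold for long genes such as Ntrk3, this scale understates its level. Vgf had the highest mean level over the 20 libraries, 101.9 CPM per kilobase, followed by Sort1 at 86.2, Scg2 at 71.2 and Ntrk2 at 43.2 CPM per kilobase. Ntrk3 at 7.04, Bdnf at 6.21, Ntf3 at 2.92 and Ngfr at 0.846 CPM per kilobase formed the lower part of the order. The ranges over libraries of Scg2 and Ntrk2, and those of Ntrk2 and Ntrk3, did not overlap. The other neighbours overlapped in range: Vgf was above Sort1 in 14 of 20 libraries, Sort1 above Scg2 in 16, Ntrk3 above Bdnf in 14, Bdnf above Ntf3 in 20 and Ntf3 above Ngfr in 19. On this scale the receptor gene Ntrk2 stood above its ligand gene Bdnf, and Ntrk3 above Ntf3, in mean level.

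Bdnf (ENSMUSG00000048482, chromosome 2, 109674700 to 109727007, plus strand) is the main ligand gene of the set. Its levels were 29.4, 55.4, 38.5, 56.4 and 43.5 CPM in control libraries 1 to 5, and 34.3, 38.4, 60.6, 44.03 and 23.4 CPM in the ICI libraries. They were 31.6, 38.9, 22.1, 38.8 and 30.5 CPM in melanoma, and 58.3, 33.2, 23.1, 30.4 and 41.1 CPM in melanoma plus ICI. Control, ICI and melanoma plus ICI each held both low and high libraries, the 5 melanoma libraries did not exceed 38.9 CPM, and all 4 ranges overlapped. The mean was 44.6 ± 11.5 CPM (SD, n = 5) for control, 40.2 ± 13.7 for ICI, 32.4 ± 6.94 for melanoma and 37.2 ± 13.4 for melanoma plus ICI. The mouse with the most Bdnf, ICI 3, had 2.74 times the level of the mouse with the least, melanoma 3. On the opposite strand Gm45346 shares 896 exon bases with Bdnf, and its own counts came to 0.338% of those of Bdnf.

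Ntf3 (ENSMUSG00000049107, chromosome 6, 126101412 to 126166910, minus strand) encodes the ligand of TrkC and had 18 to 223 counts per library. Control libraries held 4.82, 6.42, 4.19, 5.77 and 4.10 CPM and ICI libraries 5.66, 4.86, 10.6, 8.20 and 3.38 CPM. Melanoma libraries held 4.37, 3.20, 3.60, 4.92 and 4.08 CPM and melanoma plus ICI libraries 6.16, 5.46, 0.697, 5.45 and 4.18 CPM. ICI 3, the library with the most Bdnf, also had the most Ntf3, and melanoma plus ICI 3 was far below all others, 15.2-fold under ICI 3. That library also had the lowest scores of the dentate gyrus (2.33), CA1 (4.59) and CA3 (3.15), and the highest neocortex score (6.09). Group means were 5.06 ± 1.01 CPM (SD, n = 5) for control, 6.54 ± 2.87 for ICI, 4.03 ± 0.669 for melanoma and 4.39 ± 2.18 for melanoma plus ICI.

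Ntf5, the gene of another TrkB ligand, was at a low level and did not exceed 1.19 CPM in any library.

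Ntrk2 (ENSMUSG00000055254, chromosome 13, 58806596 to 59133970, plus strand) encodes TrkB, whose full-length form is neuronal and whose truncated form is common in astrocytes. The 5 control libraries gave 639.7, 597, 598, 420.5 and 556 CPM, and the ICI libraries 673, 658, 482, 565 and 680.2 CPM. Melanoma libraries gave 629, 576, 602, 592 and 683 CPM, and melanoma plus ICI libraries 439, 680.4, 621, 657 and 578 CPM. The level was narrow apart from 3 low libraries, control 4, melanoma plus ICI 1 and ICI 3. Means were 562 ± 84.6 CPM (SD, n = 5) for control, 612 ± 86.0 for ICI, 617 ± 41.8 for melanoma and 595 ± 95.3 for melanoma plus ICI. Counts per gene do not separate the full-length from the truncated receptor.

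Ntrk3 (ENSMUSG00000059146, chromosome 7, 78175959 to 78738012, minus strand) encodes TrkC, the neuronal receptor for the Ntf3 product. Its levels were 189, 252, 222, 179 and 199 CPM in control, and 222, 282, 242, 236 and 187 CPM in ICI. They were 259, 211, 203, 210.3 and 211 CPM in melanoma, and 156, 213, 185, 191 and 197 CPM in melanoma plus ICI. The ICI libraries were mostly high and the melanoma plus ICI libraries mostly low, and both ranges overlapped between 187 and 213 CPM. Means were 208 ± 29.2 CPM (SD, n = 5) for control, 234 ± 34.4 for ICI, 219 ± 22.6 for melanoma and 188 ± 20.9 for melanoma plus ICI. The antisense gene Gm9885 lies within the Ntrk3 locus without sharing exon bases, and its counts equalled 2.67% of those of Ntrk3.

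Ngfr (ENSMUSG00000000120, chromosome 11, 95568818 to 95587735, minus strand), the receptor gene for all neurotrophins, was the lowest of the 8, with 32 to 207 counts per library. Control libraries had 2.59, 3.06, 2.05, 4.24 and 4.43 CPM and ICI libraries 1.80, 2.82, 1.62, 3.71 and 4.84 CPM. Melanoma libraries had 1.72, 2.30, 1.39, 1.65 and 2.52 CPM and melanoma plus ICI libraries 1.56, 3.46, 1.74, 8.17 and 2.62 CPM. The 5 melanoma libraries were all at or under 2.52 CPM, and 1 melanoma plus ICI library, number 4, exceeded every other library. That library also had the highest choroid plexus score (6.83) and the highest meninges score (4.86) of the 20. Means were 3.27 ± 1.04 CPM (SD, n = 5) for control, 2.96 ± 1.35 for ICI, 1.92 ± 0.474 for melanoma and 3.51 ± 2.71 for melanoma plus ICI.

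Sort1 (ENSMUSG00000068747, chromosome 3, 108284082 to 108361511, plus strand) encodes sortilin. Control libraries read 555, 817, 728, 432 and 626 CPM and ICI libraries 745, 744, 806, 743 and 597 CPM. Melanoma libraries read 683, 733, 535, 756 and 609 CPM and melanoma plus ICI libraries 506, 595, 555, 593 and 692 CPM. Controls held both the highest and the lowest library of all 20, and 4 of the 5 ICI libraries were above every melanoma plus ICI library. Means were 632 ± 150 CPM (SD, n = 5) for control, 727 ± 77.5 for ICI, 663 ± 91.0 for melanoma and 588 ± 68.6 for melanoma plus ICI.

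Vgf (ENSMUSG00000037428, chromosome 5, 137026392 to 137033351, plus strand) gave 331, 247, 285, 474 and 298 CPM in control and 302, 276, 241, 246 and 305 CPM in ICI. It gave 269.6, 322, 279.5, 287 and 299.6 CPM in melanoma and 398, 283, 315, 253 and 346 CPM in melanoma plus ICI. The top pair of libraries was control 4 and melanoma plus ICI 1. Means were 327 ± 87.4 CPM (SD, n = 5) for control, 274 ± 30.1 for ICI, 292 ± 20.4 for melanoma and 319 ± 56.3 for melanoma plus ICI.

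Scg2 (ENSMUSG00000050711, chromosome 1, 79434669 to 79440120, minus strand), the gene of secretogranin II, gave 168, 182, 177, 256 and 169.8 CPM in control and 169, 189, 204, 169 and 137 CPM in ICI. It gave 167, 164, 182, 167 and 157 CPM in melanoma and 246, 232, 137, 156 and 155 CPM in melanoma plus ICI. The same pair, control 4 and melanoma plus ICI 1, was again highest, and melanoma plus ICI 3 was lowest. Means were 190.4 ± 37.2 CPM (SD, n = 5) for control, 174 ± 25.1 for ICI, 167 ± 9.25 for melanoma and 185 ± 49.8 for melanoma plus ICI. Control 4 and melanoma plus ICI 1 also held the 2 lowest values of Ntrk2, Ntrk3 and of Sort1.

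**Figure D1:**
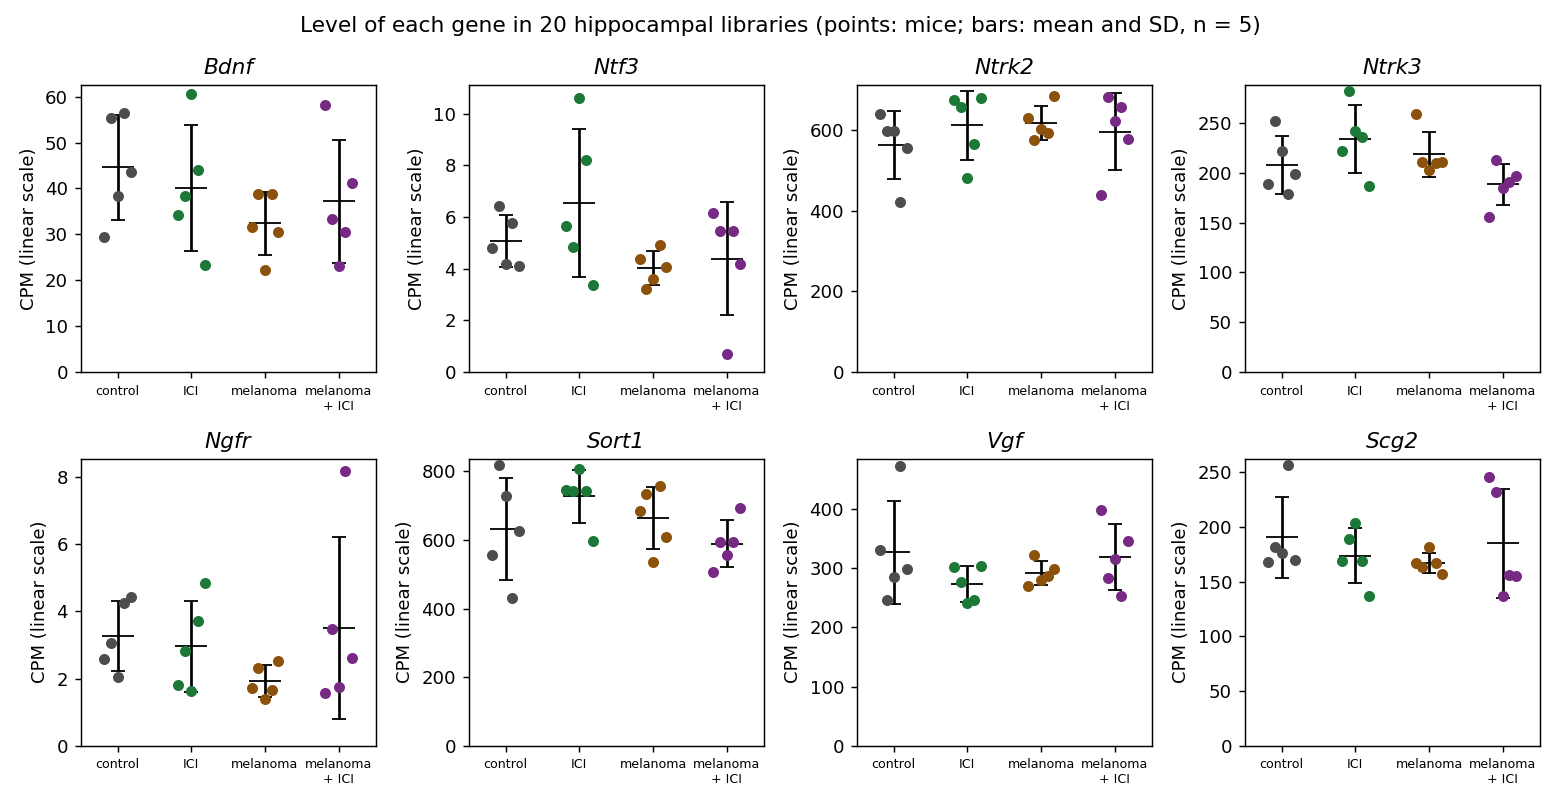
Level of each gene in CPM on a linear axis from 0, by group; points are single mice and bars give the mean and SD of 5 mice. Every pair of groups overlapped for every gene, and single libraries such as 8.17 CPM of Ngfr and 0.697 CPM of Ntf3 stand out.

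Across the 8 genes and 6 pairs of groups, 48 comparisons of ranges were made, and 0 of 48 had ranges that did not overlap. Over all 18427 genes and the same 6 pairs of groups this share was 1.1%, and 0 of 48 is close to that background. The groups were compared gene by gene with edgeR's quasi-likelihood test, with Benjamini-Hochberg adjustment over the 18427 genes. A difference was called at an adjusted p under 0.05.

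With ICI and no tumour, none of the neurotrophin genes differed from control beyond the spread between mice. At the adjusted threshold 0 of 8 genes were called, beside 0 of 18427 genes in all (0%), and at an unadjusted p under 0.05 the count was 0 of 8, beside 5.23% of all genes. The 8 log2 fold changes against control ran from -0.25 to 0.37 with a median of -0.01, the same as over all genes. Bdnf differed by -0.15 (SE 0.25, adjusted p = 0.869), and by -0.35 without ICI 3 and -0.01 without ICI 5. The smallest p belonged to Vgf, at -0.25 (SE 0.15, unadjusted p = 0.0966, adjusted p = 0.766), and its value was -0.09 without control 4 and 0.01 once each library's slope with exon length was a covariate, where Bdnf stood at 0.09.

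In tumour-bearing mice under isotype antibody, Bdnf, Ntf3, Ngfr and Scg2 had the lowest group means of the 4 groups, but none of these differences from control passed. The counts were 0 of 8 at the adjusted threshold (0% of all genes) and 0 of 8 at an unadjusted p under 0.05 (5.11% of all genes). The 8 log2 fold changes ran from -0.77 to 0.13 with a median of -0.18, against -0.01 over all genes. Ngfr differed by -0.77 (SE 0.40, unadjusted p = 0.0699, adjusted p = 0.877) and Bdnf by -0.46 (SE 0.25, unadjusted p = 0.0824, adjusted p = 0.877). The dentate gyrus score was 4.34 ± 0.94 (SD, n = 5) in melanoma and 4.92 ± 1.08 in control, and the striatum score 4.62 ± 1.69 and 3.05 ± 0.37. With choroid plexus, striatum, neocortex and dentate gyrus scores as covariates, the Bdnf difference was -0.07.

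In melanoma plus ICI, the mean levels of the 8 genes lay close to those of control. The counts were 0 of 8 at the adjusted threshold (0% of all genes) and 0 of 8 unadjusted (2.38% of all genes), with log2 fold changes from -0.26 to 0.10 and a median of -0.07, against a median of 0.003 over all genes. Bdnf differed by -0.26 (SE 0.25, adjusted p = 1.00) and was 0.25 higher with the 4 tissue scores as covariates. Without melanoma plus ICI 1 the Bdnf value was -0.49, and without melanoma plus ICI 3 it was -0.13. Ntrk3 had the smallest p, at -0.14 (SE 0.11, unadjusted p = 0.221, adjusted p = 1.00), and stood at -0.07 without control 2 and -0.06 with the 4 tissue scores.

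Among tumour-bearing mice, checkpoint antibodies went with a higher mean of Ngfr, which rested in large part on 1 mouse. The counts were 0 of 8 at the adjusted threshold (0% of all genes) and 1 of 8 at an unadjusted p under 0.05, beside 5.5% of all genes, and 2.63% in the higher direction. Ngfr differed by 0.87 (SE 0.40, unadjusted p = 0.0418, adjusted p = 0.825), and without melanoma plus ICI 4 by 0.29 (unadjusted p = 0.384). With the 4 tissue scores as covariates it differed by 0.48 (unadjusted p = 0.375). Bdnf differed by 0.20 (SE 0.25, adjusted p = 0.862), by -0.02 without melanoma plus ICI 1 and by 0.34 without melanoma plus ICI 3. The 8 values ran from -0.22 to 0.87 with a median of 0.13, against 0.02 over all genes.

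Among treated mice, those with tumours had less Ntrk3 and less Sort1 on average, at the unadjusted level only. The counts were 0 of 8 at the adjusted threshold (0% of all genes) and 2 of 8 at an unadjusted p under 0.05, both lower, beside 8.63% of all genes in either direction and 4.51% lower. Ntrk3 differed by -0.31 (SE 0.11, unadjusted p = 0.0130, adjusted p = 0.563), and its unadjusted p was under 0.05 in each of 20 fits that left out 1 library, the largest being 0.0469 without ICI 2. Sort1 differed by -0.31 (SE 0.14, unadjusted p = 0.0457, adjusted p = 0.572), and its unadjusted p was under 0.05 in 12 of the 20 fits. The dentate gyrus score was 3.80 ± 0.85 (SD, n = 5, range 2.33 to 4.42) in melanoma plus ICI and 5.17 ± 0.94 (range 3.84 to 6.19) in ICI. With the 4 tissue scores as covariates Ntrk3 stood at -0.16 (unadjusted p = 0.169) and Sort1 at -0.15 (unadjusted p = 0.253). Bdnf differed by -0.11 (SE 0.25, adjusted p = 0.892) and changed sign with those covariates, to 0.49, and without ICI 3, to 0.09. The 8 values ran from -0.58 to 0.25 with a median of -0.07, against 0.03 over all genes.

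The interaction, the ICI difference with tumour minus that without, asks whether tumour and antibodies add up, as far as both treated groups had the same duration of antibodies. Here 0 of 8 genes passed the adjusted threshold (0% of all genes), and 1 of 8 had an unadjusted p under 0.05, beside 10.3% of all genes, and 4.28% lower. That gene was Ntrk3, at -0.38 (SE 0.16, unadjusted p = 0.0278, adjusted p = 0.484), with a value of -0.19 under the 4 tissue scores (unadjusted p = 0.255) and an unadjusted p of 0.102 without control 4 and melanoma plus ICI 1. Bdnf stood at 0.35 (SE 0.36, adjusted p = 0.657), at 0.14 without melanoma plus ICI 1, at 0.56 without ICI 3, and at -0.02 with the slope on exon length as a covariate. The 8 values ran from -0.38 to 1.02 with a median of 0.05, against 0.03 over all genes.

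**Figure D2:**
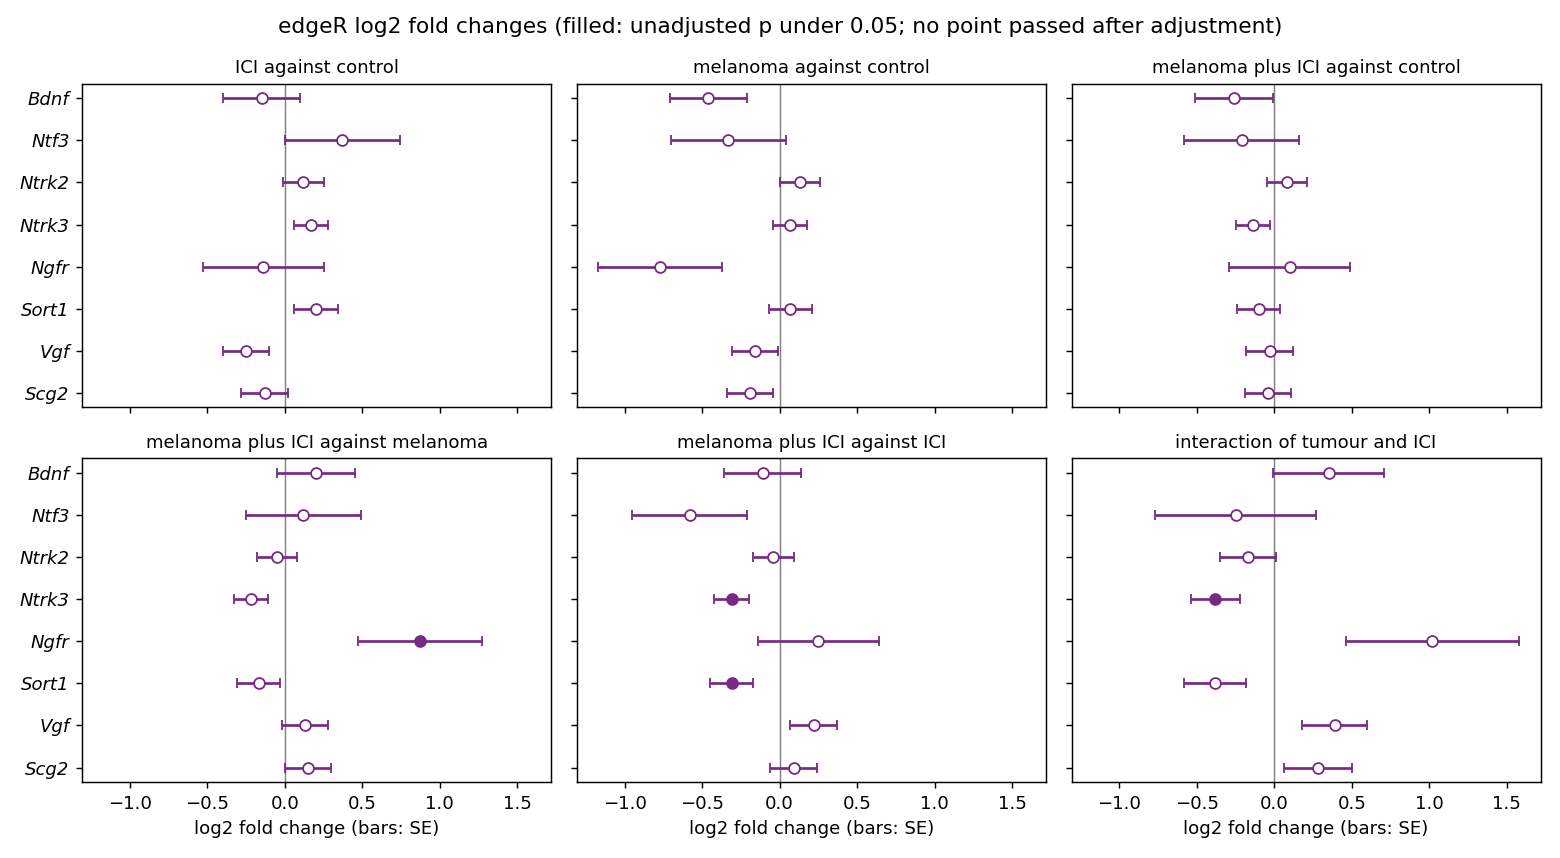
Fold change of each gene on the log2 scale (horizontal axis) in the 6 contrasts, from edgeR, with bars of 1 SE; filled points have an unadjusted p under 0.05. The filled points are Ngfr at 0.87 in melanoma plus ICI against melanoma, Ntrk3 and Sort1 at -0.31 in melanoma plus ICI against ICI, and Ntrk3 at -0.38 in the interaction; 0 points passed after adjustment.

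In all 6 contrasts DESeq2 and limma voom also called 0 of the 8 genes after adjustment, and the smallest adjusted p of any of them in 29 alternative settings was 0.273. Over all 18427 genes DESeq2 called at most 47 in a contrast, in the interaction. Limma voom called at most 25, in melanoma plus ICI against melanoma. The numbers in the library names run by group and their meaning is not given, so a batch that followed them cannot be told apart from the groups in any contrast. The p-values rest on a spread between mice pooled over all 4 groups and drawn towards that of other genes. Spreads of single groups differed, as for Ngfr, with an SD of 0.474 CPM in melanoma and 2.71 CPM in melanoma plus ICI. The contrasts share groups, so their counts are not independent of each other.

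The pathway around the 8 genes was read from 129 further genes in 8 lists, of which 126 were tested. The other 3, Plg, Mmp3 and Mmp7, which encode proteases that can cleave the Bdnf precursor, had 43, 1 and 0 counts over all libraries. At the adjusted threshold 0 of 126 genes were called in each of the 6 contrasts. At an unadjusted p under 0.05 the counts were 7 of 126 for ICI and 5 for melanoma, each against control. For melanoma plus ICI they were 3 against control, 4 against melanoma and 23 against ICI, and the interaction had 16. As shares, in this order, these were 5.56%, 3.97%, 2.38%, 3.17%, 18.3% and 12.7%, against the background shares of 5.23%, 5.11%, 2.38%, 5.5%, 8.63% and 10.3% of all genes. Against ICI the count was 0 higher and 2 lower with the 4 tissue scores as covariates, and 3 higher and 7 lower without melanoma plus ICI 1. In the interaction it was 3 higher and 2 lower without control 4 and melanoma plus ICI 1. The shares of all genes in these refits, here and below, are not reported. A change in such a count thus cannot be read as particular to the listed genes.

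By list, the 44 adaptors and kinases downstream of Trk receptors gave 9 genes at an unadjusted p under 0.05 in the interaction, 7 of them lower and 2 higher, with a median of -0.13, against 10.3% of all genes in either direction and 4.28% lower. Without control 4 and melanoma plus ICI 1, and also with the length slope as a covariate, 1 was lower and 1 higher, again with no share of all genes for these fits. The gene of this list with the smallest p was Akt2, which encodes a kinase of the PI3 kinase pathway. It had 109.7 ± 10.5 CPM (SD, n = 5) for control, 90.7 ± 9.84 for ICI, 97.0 ± 5.18 for melanoma and 104.3 ± 14.6 for melanoma plus ICI. Its ICI difference was -0.27 without tumour (SE 0.10, unadjusted p = 0.0102, adjusted p = 0.766), and its interaction 0.38 (SE 0.14, unadjusted p = 0.0117, adjusted p = 0.476), or 0.24 with the 4 tissue scores. The 13 adaptors of the Ngfr receptor had 3 genes at that level in the interaction, 1 higher and 2 lower. This was 23.1%, against 10.3% of all genes in either direction and 4.28% lower. In melanoma plus ICI against ICI they had 1 higher and 1 lower (15.4%, against 8.63% of all genes), and against melanoma 1 lower (7.69%, against 5.5%). The 9 other neurotrophin ligands and receptors, the 9 tested processing enzymes and the 10 other granins and vesicle proteins had at most 1 gene each in any contrast. That is 11.1% or 10.0% of a list, against 2.38% to 10.3% of all genes over the contrasts.

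Other genes with the smallest p of their contrast were Plat, Rps6ka3, Crtc2 and Fosb. Plat encodes tissue plasminogen activator, which starts the cleavage of the Bdnf precursor by plasmin. It had 38.4 ± 5.98 CPM (SD, n = 5) in control and 46.8 ± 3.28 in melanoma, a difference of 0.29 (SE 0.10, unadjusted p = 0.0102, adjusted p = 0.817), or 0.18 with limma voom. Rps6ka3, a kinase below the MAP kinases, differed by 0.27 between melanoma plus ICI and control (SE 0.11, unadjusted p = 0.0216, adjusted p = 1.00), and by 0.16 without melanoma plus ICI 3. Crtc2, a coactivator of CREB, differed by -0.19 between melanoma plus ICI and melanoma (SE 0.07, unadjusted p = 0.0165, adjusted p = 0.825).

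The activity-regulated list holds 13 immediate early genes, which are transcribed within minutes of neuronal firing, as Bdnf is more slowly. In ICI against control all 13 had fold changes below 0, with a median of -0.61 and 3 genes at an unadjusted p under 0.05, against 3.15% of all genes called lower. Without control 5, which had the highest score of this list among controls (5.87), 12 were below 0, with a median of -0.31 and 1 gene. In melanoma plus ICI against ICI, which shares the ICI libraries with that contrast, all 13 were above 0, with a median of 0.68 and 6 genes at an unadjusted p under 0.05, against 4.12% of all genes called higher. The score of this list was 6.2, 4.10, 5.73, 4.46 and 5.21 in melanoma plus ICI libraries 1 to 5, and 4.33 to 4.97 in the ICI libraries. The highest scores were in libraries 1 and 3, which stand apart in length slope and in tissue scores. Library 5 also lay above the ICI range, and libraries 2 and 4 lay below or within it. In the melanoma group, not given ICI, the score was 5.18 to 5.90, above the ICI range, and in control it was 4.82 to 5.87. In melanoma against control 11 of the 13 genes were above 0, with a median of 0.27. How these traits of libraries bear on the list was not tested. Without melanoma plus ICI 1 the median against ICI was 0.37 with 1 gene at that level, and without melanoma plus ICI 3 it was 0.56 with 4 genes. With the 4 tissue scores as covariates it was 0.30 with 0 genes. Fosb had the smallest p there, with a mean of 11.7 ± 3.35 CPM (SD, n = 5) for ICI and 22.1 ± 11.4 CPM for melanoma plus ICI, a difference of 0.92 (SE 0.31, unadjusted p = 0.00754, adjusted p = 0.563). With the 4 tissue scores as covariates it was 0.31, and with limma voom 0.42. The values of Bdnf were -0.15 in ICI against control and -0.11 in melanoma plus ICI against ICI. Of 16 genes known as Bdnf-induced plasticity or feedback genes, 6 had an unadjusted p under 0.05 in melanoma plus ICI against ICI, 1 higher and 5 lower, with a median of 0.14, against 8.63% of all genes in either direction and 4.51% lower. Of 16 regulators of Bdnf transcription, 3 did so, all lower, with a median of -0.03, against the same 4.51% of all genes. With the 4 tissue scores as covariates these counts were 0 and 1. Without melanoma plus ICI 1 the counts lower were 3 and 1, and 2 of the regulators were then called higher. The shares of all genes in these refits are not reported. Markers of hippocampal fields were also lower on average in this contrast, beside the dentate gyrus score given above. The CA1 score was 5.61 ± 0.62 (SD, n = 5, range 4.59 to 6.23) in melanoma plus ICI and 6.26 ± 0.19 (range 5.98 to 6.50) in ICI. These ranges overlapped, and the lowest value was that of melanoma plus ICI 3. The part of the field markers in these counts was not tested.

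Several of the genes varied together from mouse to mouse. Of 28 pairs of the 8 genes, 7 had a Pearson correlation of log2 CPM over the 20 libraries with an adjusted p under 0.05, and 5 a Spearman correlation (permutation tests with 100000 resamples, two-sided, adjusted over the 28 pairs). The count of 7 was 11 with the length slope removed, and 5 to 9 without single libraries. The ligand gene and its receptor gene ran in opposite directions: Bdnf and Ntrk2 had r = -0.74 (p = 8e-05, adjusted p = 0.00168) and rho = -0.78 (p = 0.00014, adjusted p = 0.00196). The value was -0.84 without the 2 libraries farthest in Bdnf, -0.74 with group means removed and -0.66 without control 4 and melanoma plus ICI 1. The 2 ligand genes ran together, with r = 0.65 for Bdnf and Ntf3 (p = 0.0004, adjusted p = 0.00322) and rho = 0.65 (p = 0.00214, adjusted p = 0.015), and 0.62 without the 2 farthest libraries. For the second pair of ligand and receptor, Ntf3 and Ntrk3, r was 0.29 (p = 0.211, adjusted p = 0.369) and rho 0.29 (p = 0.214, adjusted p = 0.462).

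Ntrk3 and Sort1 ran together, with r = 0.77 (p = 0.00012, adjusted p = 0.00168), rho = 0.77 (p = 0.00019, adjusted p = 0.00196) and 0.77 without the 2 farthest libraries. Ntrk3 ran against Vgf, with r = -0.70 (p = 0.0006, adjusted p = 0.00336), rho = -0.75 (p = 0.00021, adjusted p = 0.00196) and -0.68 without the 2 farthest libraries. The remaining 3 pairs rested in part on control 4 and melanoma plus ICI 1. Sort1 and Vgf had r = -0.71 (p = 0.00046, adjusted p = 0.00322) and rho = -0.53 (p = 0.0174, adjusted p = 0.0695), but r = -0.40 without those libraries. Ntrk2 and Scg2 had r = -0.65 (p = 0.00301, adjusted p = 0.012) and rho = -0.38 (p = 0.0984, adjusted p = 0.293), but r = -0.21 without them. Bdnf and Scg2 had r = 0.64 (p = 0.00229, adjusted p = 0.0107) and rho = 0.54 (p = 0.0165, adjusted p = 0.0695), r = 0.67 without the 2 libraries farthest in Bdnf, and r = 0.47 without control 4 and melanoma plus ICI 1. The 2 granin genes Vgf and Scg2 had r = 0.37 (p = 0.108, adjusted p = 0.301) and rho = -0.16 (p = 0.497, adjusted p = 0.773), and r = -0.44 without those 2 libraries. Other pairs were closer without them: Bdnf with Sort1 went from r = 0.23 (p = 0.321, adjusted p = 0.528; rho = 0.38, p = 0.0974) to 0.84, and Bdnf with Ntrk3 from 0.11 (p = 0.634, adjusted p = 0.740; rho = 0.17, p = 0.484) to 0.56. Both pairs thus turn on which libraries are counted. Ntf3 and Scg2 passed by Spearman only, with rho = 0.63 (p = 0.00375, adjusted p = 0.021) and r = 0.54 (p = 0.0163, adjusted p = 0.057), 0.45 without the 2 farthest libraries and 0.60 without control 4 and melanoma plus ICI 1.

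The same genes followed markers of hippocampal fields and cell types. Each gene was set against 14 marker scores, with p-values adjusted over all of these relations, and 26 had an adjusted p under 0.05 by Pearson and 22 by Spearman. The count of 26 was 13 without ICI 3 and 17 without melanoma plus ICI 3. The ligand genes followed the dentate gyrus, the field of granule cells. Bdnf had r = 0.70 with its score (p = 0.00055, adjusted p = 0.00684) and rho = 0.61 (p = 0.00511, adjusted p = 0.0337), and all 6 markers correlated positively with Bdnf, from 0.56 for Dsp to 0.79 for Tdo2. The value was 0.55 without the 2 libraries farthest in the score and 0.85 without control 4 and melanoma plus ICI 1. Ntf3 had r = 0.71 (p = 0.0002, adjusted p = 0.00448) and rho = 0.55 (p = 0.0126, adjusted p = 0.0586), and 0.55 without the 2 farthest libraries, with 6 of 6 markers positive, from 0.49 for Dsp to 0.89 for C1ql2.

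Bdnf also had r = 0.59 with the CA1 score (p = 0.00378, adjusted p = 0.0237; rho = 0.63, p = 0.0035, adjusted p = 0.0302) and r = 0.63 with the CA3 score (p = 0.00278, adjusted p = 0.0208; rho = 0.59, p = 0.00707, adjusted p = 0.0396). Without the 2 farthest libraries these were 0.50 and 0.63. Single markers were mixed, with 4 of 5 CA1 markers and 5 of 6 CA3 markers positive, and Mpped1 at -0.43 and Plagl1 at -0.61. The CA1 relation of Ntf3, r = 0.73 (p = 0.00751, adjusted p = 0.0382) and rho = 0.34 (p = 0.143, adjusted p = 0.298), rested on the 2 libraries farthest in the score, melanoma plus ICI 3 and 4, and was 0.33 without them. Bdnf showed no relation to the activity-regulated score, with r = -0.06 (p = 0.807, adjusted p = 0.839) and rho = -0.04 (p = 0.866, adjusted p = 0.934), and -0.32 without the 2 farthest libraries.

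Ntrk2 followed astrocytes. Its r with the astrocyte score was 0.81 (p = 8e-05, adjusted p = 0.0028) and rho 0.52 (p = 0.0189, adjusted p = 0.0784), and r was 0.57 without control 4 and melanoma plus ICI 1, the 2 farthest libraries. Of the 7 markers 5 were positive, from -0.11 for Sox9 to 0.84 for Slc1a3, which encodes a glial glutamate transporter. The score itself spanned only 7.25 to 7.57. Ntrk2 ran against the microglia score, with r = -0.71 (p = 0.00065, adjusted p = 0.00728) and rho = -0.62 (p = 0.00409, adjusted p = 0.0305), and -0.50 without the 2 farthest libraries. Within the 18 libraries other than control 4 and melanoma plus ICI 1, Ntrk2 followed the slope on exon length, with r = 0.62 (p = 0.00603, adjusted p = 0.0482 over the 8 genes) and rho = 0.60 (p = 0.00955, adjusted p = 0.0764), and 0.65 without the 2 farthest of those.

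Sort1 and Vgf followed the score of GABAergic interneurons, the inhibitory neurons, in opposite directions. Sort1 had r = -0.90 (p = 1e-05, the smallest the resamples can give, adjusted p = 0.00056) and rho = -0.86 (p = 2e-05, adjusted p = 0.00224). This was -0.85 without the 2 farthest libraries, control 4 and control 2, and -0.90 with group means removed, with 6 of 6 markers negative, from -0.80 for Vip to -0.11 for Gad2. Vgf had r = 0.85 (p = 1e-05, again the smallest possible, adjusted p = 0.00056) and rho = 0.73 (p = 0.00048, adjusted p = 0.00684), and 0.76 without the 2 farthest libraries, with 5 of 6 markers positive, Gad2 at -0.36 and Sst, the somatostatin gene, at 0.84. Sst is also in the list of Bdnf-induced genes. Ntrk3 ran with Sort1 here, with r = -0.72 (p = 0.00046, adjusted p = 0.00644) and rho = -0.75 (p = 0.00023, adjusted p = 0.00644), and -0.68 without the 2 farthest libraries. Bdnf had r = -0.22 with this score (p = 0.35, adjusted p = 0.528; rho = -0.34, p = 0.147), but -0.84 without control 4 and melanoma plus ICI 1.

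The neocortex score divided the same genes. Its r was -0.75 with Sort1 (p = 0.0001, adjusted p = 0.0028; rho = -0.78, p = 7e-05, adjusted p = 0.00392) and -0.67 with Ntrk3 (p = 0.00145, adjusted p = 0.0135; rho = -0.69, p = 0.00093, adjusted p = 0.0101). With Vgf it was 0.71 (p = 0.00037, adjusted p = 0.00644; rho = 0.72, p = 0.00046, adjusted p = 0.00684). Without the 2 farthest libraries, melanoma plus ICI 3 and 1, these were -0.72, -0.54 and 0.70, and in each case all 8 markers had the sign of the score. Among the 16 libraries low in striatum markers, the striatum score had r = -0.76 with Sort1 (p = 0.00067, adjusted p = 0.00536 over the 8 genes; rho = -0.75, p = 0.0013) and -0.64 with Ntrk3 (p = 0.00668, adjusted p = 0.0267; rho = -0.67, p = 0.00586), or -0.77 and -0.60 without the 2 farthest of those libraries. Sort1 and Ntrk3 were also higher in libraries with more dentate gyrus markers, with r = 0.63 (p = 0.00261, adjusted p = 0.0208; rho = 0.72, p = 0.00051, adjusted p = 0.00684) and r = 0.64 (p = 0.00259, adjusted p = 0.0208; rho = 0.73, p = 0.00037, adjusted p = 0.00684), or 0.59 and 0.69 without the 2 farthest libraries.

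Scg2 ran against the astrocyte score, with r = -0.69 (p = 0.00116, adjusted p = 0.0118) and rho = -0.48 (p = 0.0358, adjusted p = 0.118), but r was -0.37 without control 4 and melanoma plus ICI 1. Bdnf did likewise, with r = -0.60 (p = 0.0048, adjusted p = 0.0269) and rho = -0.48 (p = 0.0316, adjusted p = 0.110), -0.69 with group means removed and -0.41 without those 2 libraries, which are also the farthest in the score. Ngfr stood alone: 0 of its 14 relations passed by Pearson and 1 by Spearman, the astrocyte score, with rho = 0.57 (p = 0.00978, adjusted p = 0.0498) and r = 0.41 (p = 0.0699, adjusted p = 0.174), and r = 0.64 without control 4 and melanoma plus ICI 1. The other relations that passed by Pearson were positive for CA3 with Ntf3 and with Sort1. They were negative for endothelium with Ntf3 and Ntrk3, neocortex with Ntf3, meninges with Ntrk3, thalamus with Sort1, and basal forebrain cholinergic neurons with Bdnf and Sort1. Of these, CA3 with Sort1, endothelium with Ntrk3 and cholinergic neurons with Sort1 also passed by Spearman, and the others did not. CA3 with Ntf3 had r = 0.65, or 0.43 without the 2 farthest libraries, and rho = 0.39 (adjusted p = 0.22). The cholinergic score rests on 3 markers at low levels, with means of 0.718 CPM for Chat, 1.84 for Slc5a7 and 0.412 for Slc18a3. How far the mix of tissue in a dissected hippocampus takes part in these relations was not tested.

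**Figure D3:**
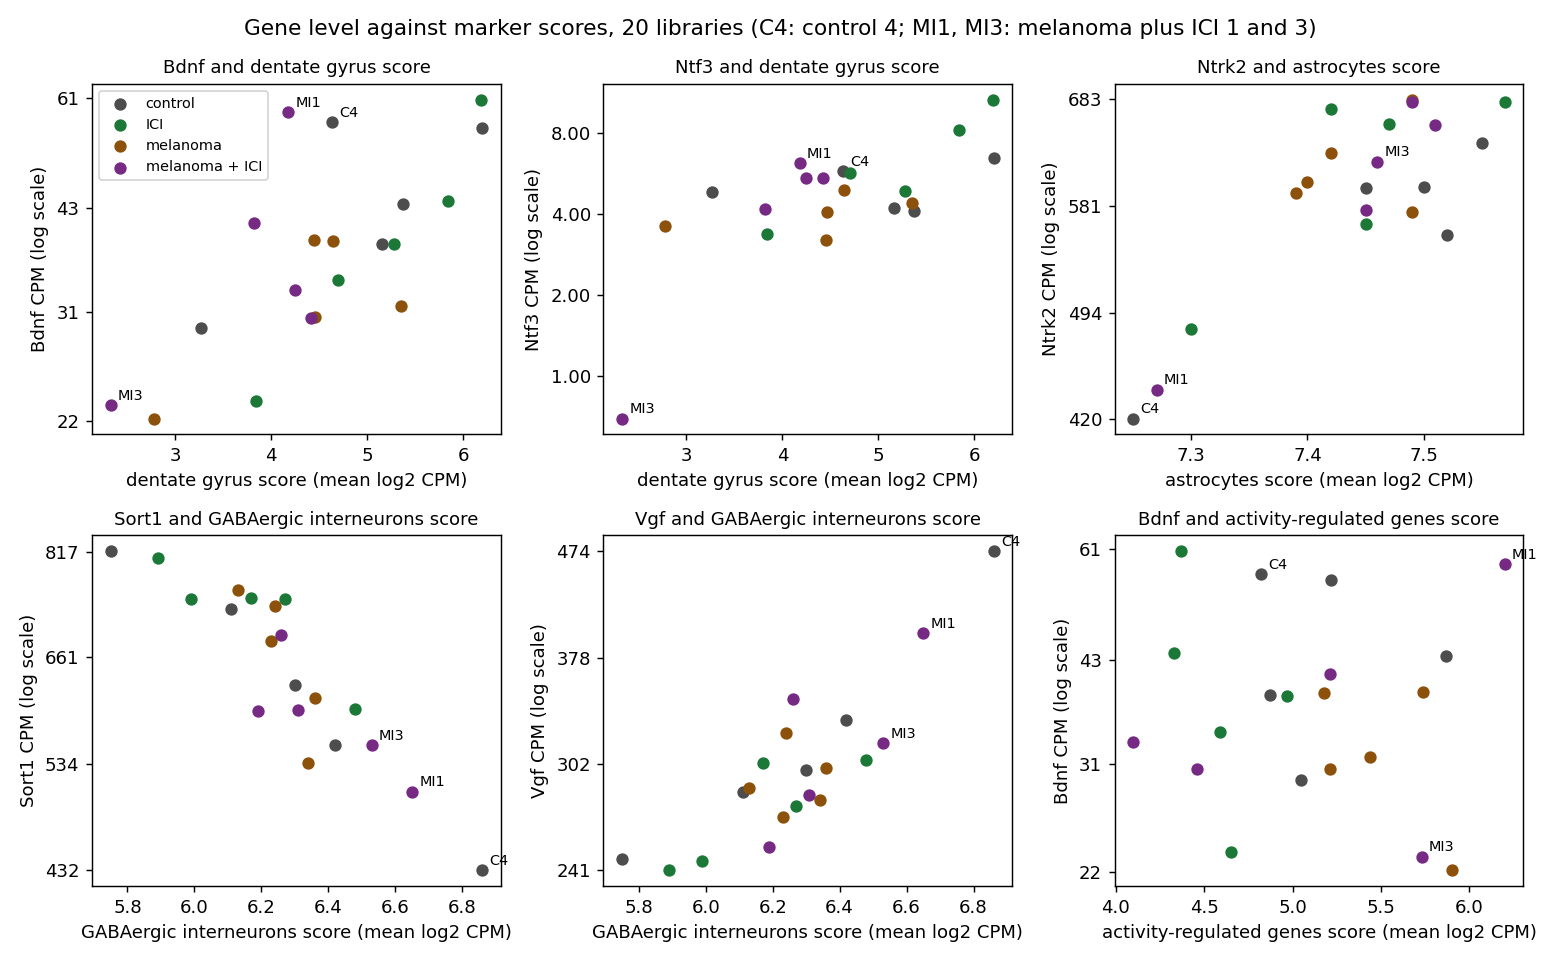
Level of a gene (vertical axis, CPM on a log scale) against a marker score (horizontal axis, mean log2 CPM) in 20 libraries, coloured by group; control 4, melanoma plus ICI 1 and melanoma plus ICI 3 are marked. Sort1 falls and Vgf climbs along the interneuron score (r = -0.90 and 0.85), Bdnf and Ntf3 climb along the dentate gyrus score (0.70 and 0.71), Ntrk2 climbs along the astrocyte score (0.81), and Bdnf has no trend with activity-regulated genes (-0.06).

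**Figure D4:**
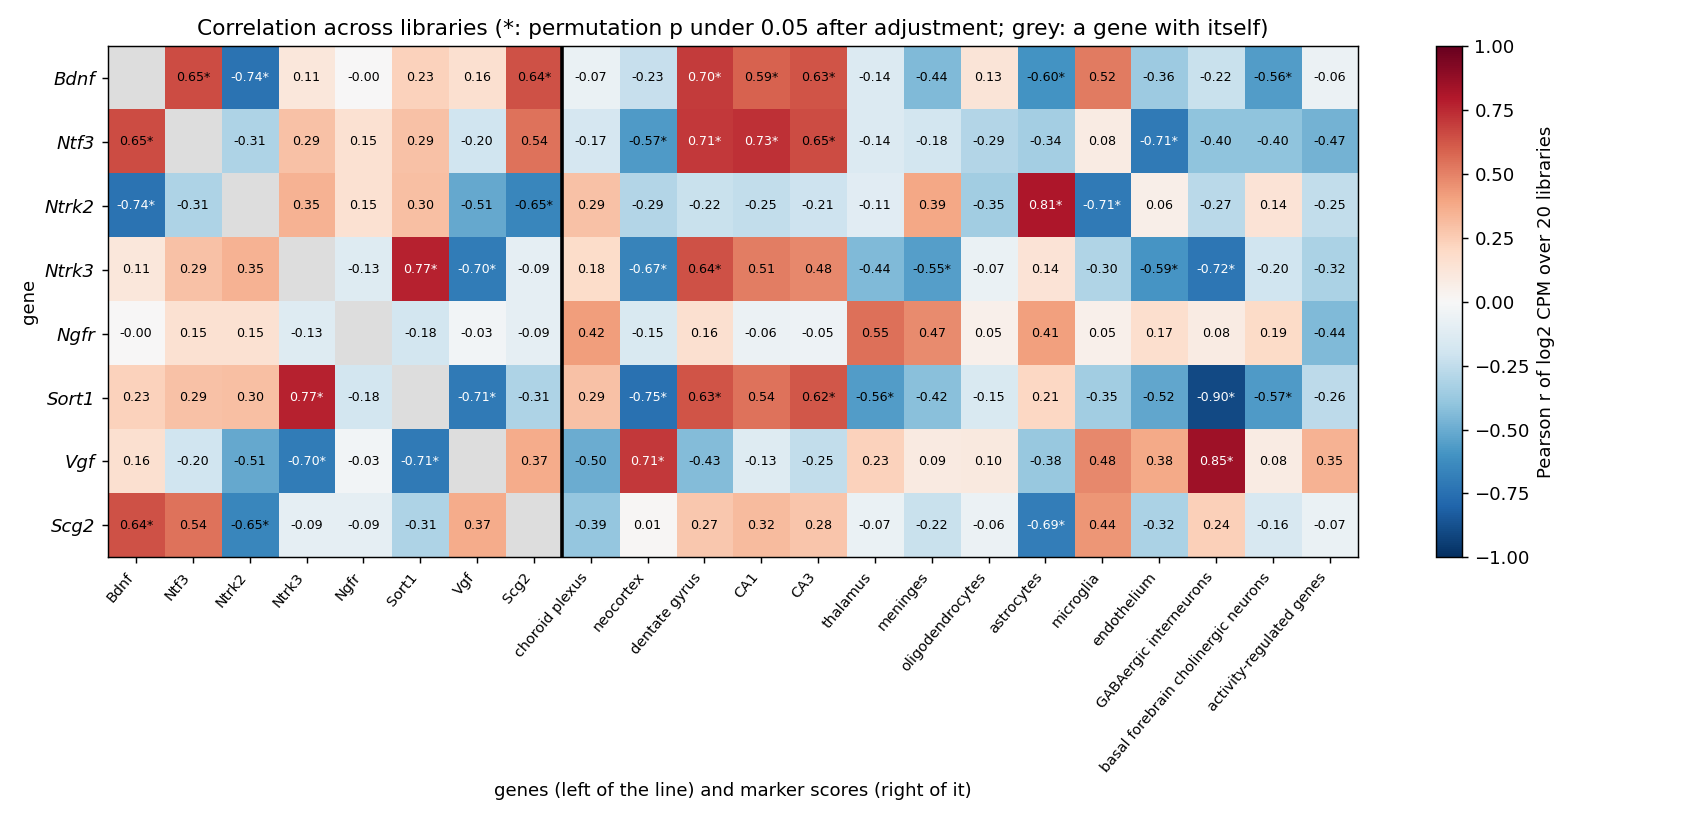
Pearson correlation of log2 CPM over 20 libraries, between the 8 genes (left of the line) and between each gene (rows) and 14 marker scores (right of it), with r written in each cell; asterisks mark an adjusted permutation p under 0.05. The rows of Sort1 and Vgf have opposite colours under neocortex and interneurons, and the row of Ngfr has 0 asterisks.

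The genes whose levels were most like each of the 8 across the 20 libraries were ranked by Pearson r among 15474 tested genes that carry a symbol and average 1 CPM or more (15473 for Ntrk3), as a description. Bdnf was most like Rras2 (0.951), Nrn1 (0.936) and Clvs2 (0.907), and Nrn1 encodes neuritin, a plasticity protein known to be induced by Bdnf. Ntf3 was most like Kctd4 (0.894), Gm20754 (0.886) and C1ql2 (0.885), and C1ql2 is itself in the dentate gyrus list. Ntrk2 was most like Ptprt, Fat1 and Ptprf, each at 0.937, which encode large membrane proteins. Without control 4 and melanoma plus ICI 1 these values were 0.88, 0.83 and 0.859. Ntrk3 was most like Rimbp3 (0.898), Grin2b (0.894) and Vps13c (0.878), or 0.848, 0.839 and 0.86 without those 2 libraries. Of these Grin2b encodes an NMDA receptor subunit. Sort1 had the closest partners of all 8, Prickle2 (0.966), 2900026A02Rik (0.966) and Tnks1bp1 (0.964). Vgf was most like Fbxw7 (0.937), Dph3 (0.933) and Bscl2 (0.933), and Scg2 most like Anp32a (0.890), Pdcd4 (0.883) and Pias1 (0.874). Without control 4 and melanoma plus ICI 1 these were 0.853, 0.838 and 0.83 for Vgf, and 0.765, 0.804 and 0.76 for Scg2. Over the 20 libraries Ngfr had the most distant partners, Ednrb (0.773), Grtp1 (0.753) and Ret (0.750), or 0.766, 0.721 and 0.735 without those 2 libraries. Of these Ret encodes a receptor of the glial-cell-line-derived family of growth factors.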

How the data were processed

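The deposited tables hold raw counts per gene and library, 1 table per mouse, per the labels; the submitters' processing notes name STAR 2.5.2b and DESeq2 1.16.1 without roles. The counting program, strand setting, treatment of multi-mapping reads, build and annotation are not given in the sources used here, so a gene and an overlapping partner on the other strand cannot be told apart. Of the 49671 deposited loci, 45088 equal those of GENCODE M21 (GRCm38), 7 of the 8 genes among them, and 49326 identifiers have a symbol there.

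Groups came from the sample titles. Counts were tested in R 4.3.3 with edgeR 4.0.16: filterByExpr (minimum count 10, minimum total 15), TMM (factors 0.9555 to 1.0432), a robust quasi-likelihood fit to all 20 libraries with 1 mean per group, 16 residual degrees of freedom, two-sided tests and Benjamini-Hochberg adjustment at 0.05. CPM use the TMM-scaled library size, and log2 CPM a prior count of 2. Within groups, the 40 pairs of libraries differed by a chi-square of 10.5 to 120 per gene, above sampling noise. Permutation tests ran in Python 3.11.15. A score with 1 wide gap that split the libraries into clusters got no pooled correlation.

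Fold changes are printed for Bdnf, for the smallest p of a contrast and for each unadjusted p under 0.05, and from the wider lists for the 1 gene with the smallest p; the 3 most alike genes are named per gene. The 8 genes, the lists and the 2 libraries left out together were chosen with earlier results of these data known. Alternatives were DESeq2 size factors, DESeq2 1.42.0, limma 3.58.1 (voom and sample quality weights), the fit without a filter, fits of only the groups compared, a replicate block, 4 tissue scores as covariates, leaving out control 4 with melanoma plus ICI 1, and each library in turn. A covariate for the slope of log2 level on exon length was added after the data were seen. Some genes of the lists are counted but not reported singly here.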

Additional observations from a re-analysis of the deposited data

Results flagged for a closer look

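Of the 32 sets of 5 libraries (8 genes in 4 groups), 3 held a library set off from the other 4, measured as its gap to the nearest one over the whole range with a limit of 0.710; chance alone sets off about 5% of such sets. Ntrk3 was 259 CPM in melanoma 1, next to 211 CPM in the nearest melanoma library. Ngfr was 8.17 CPM in melanoma plus ICI 4, next to 3.46 CPM. Scg2 was 256 CPM in control 4, next to 182 CPM.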

How the results depend on the processing

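After adjustment 0 of the 8 genes passed in each of the 6 contrasts under all 29 alternatives: 9 other settings (8 for the interaction) and 20 fits without 1 library. Of 548 refitted values of the named genes, 9 had the opposite sign, all of Bdnf and Vgf, and the cause was not tested. With the slope on exon length, Bdnf stood at 0.09 and Vgf at 0.01 in ICI against control, and Bdnf at -0.02 in the interaction. With 4 tissue scores, Bdnf stood at 0.25 in melanoma plus ICI against control and at 0.49 against ICI. Against melanoma, Bdnf stood at -0.01 without control 4 and melanoma plus ICI 1, and at -0.02 to 0.34 without single libraries; against ICI the latter range was -0.34 to 0.09, with 0.09 without ICI 3 and 0.03 without melanoma plus ICI 3. The correlated pairs of genes were 7, 11 with the length slope removed, and 5 to 9 without single libraries. Those with scores were 26, and 13 to 30 without single libraries, with 13 without ICI 3 and 17 without melanoma plus ICI 3.

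Over all genes the count past the threshold was 0 with edgeR in every contrast. DESeq2 called 1 gene for ICI and 8 for melanoma, each against control, 9 for melanoma among treated mice and 47 for the interaction. Limma voom called 1 for melanoma against control, 25 for ICI among tumour-bearing mice and 19 for the interaction. Other counts above 0 were 3 in melanoma against control with only those groups and 1 without control 2. In the interaction they were 5 with the length slope, 1 without control 4 and melanoma plus ICI 1, 1 without control 4, 2 without ICI 4 and 1 without melanoma 4. Without melanoma plus ICI 3 the counts were 3 for melanoma against control, 12 for ICI among tumour-bearing mice and 11 for the interaction, the highest of the fits without 1 library.

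The replicate numbers in the titles are not said to pair mice. Of 30 pairs of libraries with the same number, 10 had deviations correlated above 0.1 (mean 0.032), and 6 of 20 libraries were most like one of their own number. With the replicate number as a block, 0 of the 8 genes passed in each of the 6 contrasts. At the low levels of Ntf3 (18 to 223 counts) and Ngfr (32 to 207 counts), counting error adds to the spread.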
